A study of Mus musculus with 15 samples.

Results

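Type I interferon-stimulated genes were followed in lymph node lymphatic endothelial cells (LECs), which form the walls of the node's lymphatic vessels and sinuses, after culture with VEGF-C, the growth factor that acts on these cells mainly through the receptor Flt4. The set held 33 genes taken by name from textbook interferon targets, and all 33 had reads and entered the test, among 17650 genes tested and 45706 genes listed. The 3 groups were unstimulated cells with no VEGF-C added, cells given 10 ng/mL and cells given 100 ng/mL of purified recombinant murine VEGF-C, each kept for 72 h and each with 5 libraries, lettered A to E. All groups shared the source: female C57Bl/6 mice, axillary, brachial, cervical, inguinal and popliteal nodes pooled, and a Pdpn+ CD31+ CD45- phenotype, grown in serum-containing medium. The labels name no genotype difference between groups, and they give neither the age of the mice nor whether a group's libraries were grown separately, so the p-values refer to library-to-library spread that could be technical.

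Type I interferons are secreted when a cell senses viral nucleic acid. They bind a receptor made of Ifnar1 and Ifnar2, whose kinases Jak1 and Tyk2 phosphorylate STAT proteins, Stat2 among them. With Irf9 the STATs form a complex that enters the nucleus, binds the interferon-stimulated response element (ISRE) and switches on a large set of genes, many of which block viral replication. Cells also express these genes at a low, tonic level without infection.

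At 100 ng/mL, 26 of the 33 genes fell against unstimulated cells, 1 rose (Rsad2) and 6 did not pass the test, by edgeR's quasi-likelihood test with Benjamini-Hochberg adjustment over all 17650 genes at a threshold of 0.05. Among all genes tested 21.5% fell and 21.4% rose in the same comparison. The median log2 fold change of the 33 was -0.603, against 0.00779 over all genes tested. In 20 of the 33 every 100 ng/mL library lay below every unstimulated library, which held for 13.7% of all genes tested. The falls ranged from Ifit3, at 25.9% of its unstimulated level, to Ddx58, at 89.7%. Of the 26 genes 6 fell at least 2-fold (Ifit3, Oasl2, Isg20, Ifit1, Irf7 and Oas3). The share of all genes tested that fell this far was not counted. Here and below, errors are SD over 5 libraries for levels and SE for log2 fold changes. At 10 ng/mL none of the 33 passed the test, and neither did any other of the 17650 genes tested (0%).

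**Figure D1:**
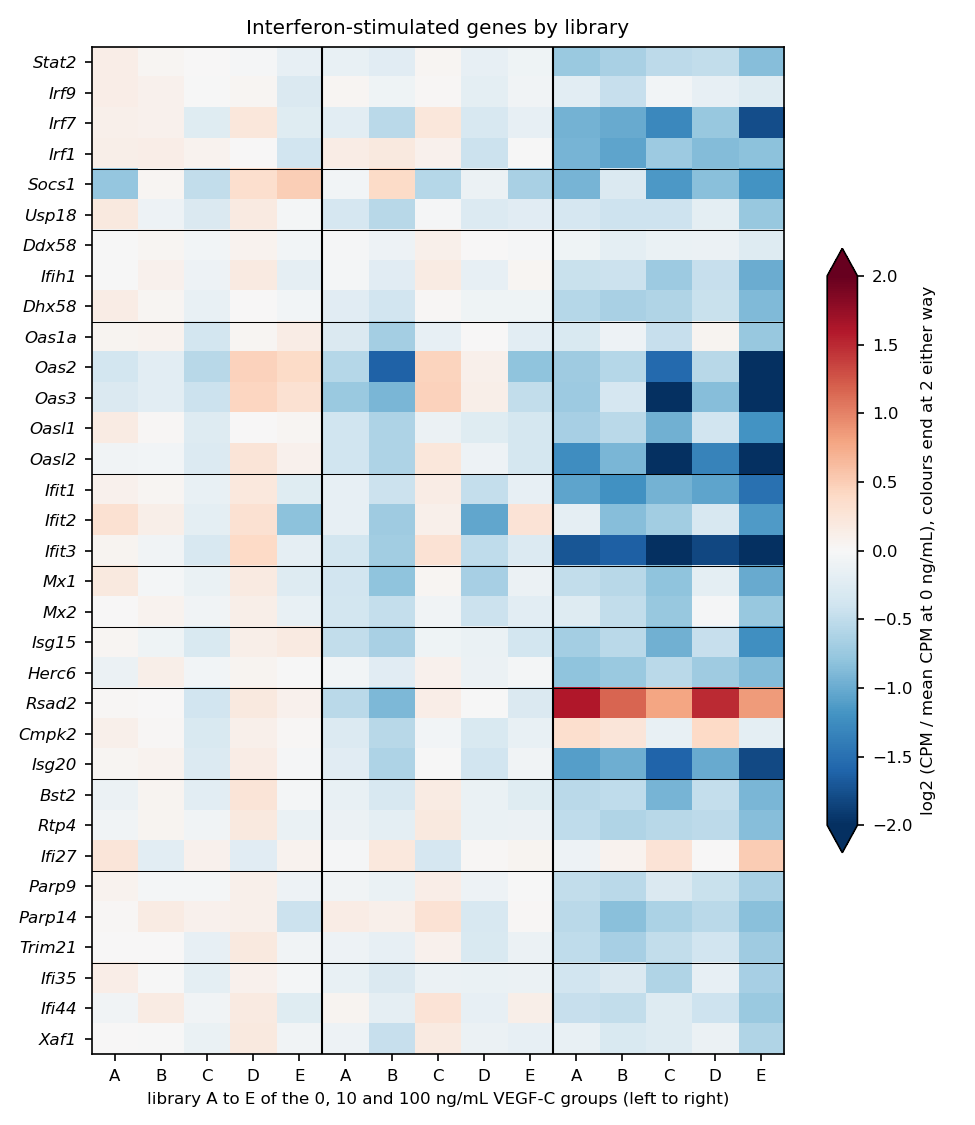
Colour gives the log2 ratio of each library's CPM (counts per library size, TMM scaled) to the mean of the 5 unstimulated libraries, for 33 genes in rows grouped by role and 15 libraries in columns, ordered by dose. The 100 ng/mL columns are blue in most rows, with Rsad2 red in all 5, and the 10 ng/mL columns are mixed, reddest in library C and bluest in library B.

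The libraries held 27784906 to 38590841 estimated counts in all. The first principal component parted the 100 ng/mL libraries from the other 10, and its score for 100 ng/mL library B was 38.84, away from the other 4 libraries of that dose at 69.76 to 78.47. Of 6 tested lymphatic markers 4 were higher at 100 ng/mL and none lower, with a summed level of 2476 to 5122 CPM at 100 ng/mL, against 1292 to 1674 CPM in unstimulated cells. Of the defining markers, Mmrn1 had under 3 counts in every library and Ccl21a at most 3.872. Of 9 leukocyte markers tested 7 were lower at 100 ng/mL and none higher, summing to 21.63 to 37.52 CPM at 100 ng/mL, against 46.11 to 142.6 CPM in unstimulated cells, and Cd3e was under 3 counts throughout. Of 11 fibroblastic and mural markers 10 were lower and none higher, summing to 908.3 to 1336 CPM at 100 ng/mL, against 3134 to 4537 CPM in unstimulated cells. Thy1 alone averaged 737.5 CPM at 100 ng/mL and 1067 CPM in unstimulated cells, so the sum at 100 ng/mL was mostly Thy1. Among 5 epithelial markers 3 were lower and 1 higher, with sums of 29.83 to 55.43 CPM at 100 ng/mL, against 73.3 to 127.8 CPM in unstimulated cells. Of 8 pan-endothelial markers 6 were higher and 1 lower, and of 6 blood endothelial markers 2 were higher and 1 lower. Beside each of these marker counts, 21.5% of all genes tested were lower and 21.4% higher at 100 ng/mL. In bulk RNA, fewer cells of a type and less RNA per cell cannot be told apart, and the part of these cells in the results that follow was not tested.

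Per unit of gene length, Bst2 was by far the most abundant of the 33, at a mean of 399 RPKM (reads scaled to gene length and library size) at 100 ng/mL and 648 RPKM in unstimulated cells. Isg15 (49.3 RPKM at 100 ng/mL and 85 in unstimulated cells), Ifit3 (19.15 and 76), Irf7 (32.75 and 72.7), Usp18 (38.2 and 52.2) and Rtp4 (32.05 and 50) came next in unstimulated cells. Socs1, Mx1, Oas2 and Oas3 were the least abundant, at 0.312, 0.475, 0.7665 and 0.928 RPKM at 100 ng/mL and 0.573, 0.73, 1.6 and 2.04 RPKM in unstimulated cells. Transcripts of all 33 genes were thus counted in unstimulated cells, to which no interferon was added per the labels.

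The 4 signalling and transcription genes all fell at 100 ng/mL, and their part in the changes of the other genes was not tested. Irf7 (chr7:141262706-141266481), the transcription factor that amplifies interferon gene induction, had 208.5, 201, 165, 238 and 118 CPM in 100 ng/mL libraries A to E, against 432, 428, 340.1, 472 and 338 CPM in unstimulated libraries A to E. The groups did not overlap, with 100 ng/mL library E lowest, and the log2 fold change was -1.11 ± 0.18 (SE, adjusted p = 0.000143). Irf1, an interferon-inducible factor that binds related DNA sites, had 33.6, 30.8, 38.5, 34.9 and 36.1 CPM at 100 ng/mL, against 69.3, 69.6, 66.7, 64.4 and 49.1 CPM in unstimulated cells, with no overlap although unstimulated library E was low (-0.88 ± 0.12, adjusted p = 2.74e-05). Stat2, the STAT particular to type I and III interferon signalling, had 109, 115.5, 126.5, 129 and 101.1 CPM at 100 ng/mL, against 199, 187, 183.5, 178 and 162 CPM in unstimulated cells. Its 100 ng/mL libraries were all below the lowest unstimulated one (-0.65 ± 0.07, adjusted p = 6.83e-06). Irf9, the DNA-binding partner of the STATs, changed least of the 4, with 98.5, 83.1, 110.0, 101.5 and 95.5 CPM at 100 ng/mL, against 125, 121, 113, 117 and 93.5 CPM in unstimulated cells. Its groups overlapped, and its log2 change of -0.22 ± 0.08 (adjusted p = 0.0426) was lost in 10 of 22 alternatives, with adjusted p between 0.000698 and 0.105. Among these were the fits that left out unstimulated A, B, C or D or 100 ng/mL A, B, D or E. Irf9 also overlaps Rnf31 on the same strand, and Irf7 overlaps Phrf1, so reads may be shared.

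Both feedback inhibitors fell. Usp18, the protease that strips ISG15 from proteins and also restrains the interferon receptor, had 136, 129.7, 129.8, 151 and 102 CPM at 100 ng/mL, against 197, 160.5, 141, 195 and 169 CPM in unstimulated cells. Only 100 ng/mL library D lay inside the unstimulated range, and the change was -0.41 ± 0.12 on the log2 scale (adjusted p = 0.0106). Socs1, which blocks the JAK kinases, was rare, at 0.728 ± 0.201 CPM at 100 ng/mL and 1.3 ± 0.456 CPM in unstimulated cells (SD, n = 5 each). It fell by the test (-0.84 ± 0.27, adjusted p = 0.0216), but not without unstimulated D, unstimulated E or 100 ng/mL E, and its adjusted p ranged from 0.00752 to 0.061 over 21 alternatives.

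All 3 sensors of viral RNA fell, in the order Dhx58, Ifih1 and Ddx58. Dhx58, the regulatory sensor LGP2, had 61.7, 58.1, 60, 67 and 49.4 CPM at 100 ng/mL, against 101.0, 93.45, 82.4, 91.7 and 88 CPM in unstimulated cells (-0.62 ± 0.09, adjusted p = 4e-05). Ifih1, the long-RNA sensor MDA5, had 112.5, 114, 92.85, 112 and 77.7 CPM at 100 ng/mL, against 153, 163, 144, 174 and 136 CPM in unstimulated cells (-0.60 ± 0.11, adjusted p = 0.000469). Neither gene's groups overlapped, and library E was the lowest of the 100 ng/mL libraries for both. Ddx58, which encodes RIG-I, moved far less, with 349, 323, 335, 339 and 309.6 CPM at 100 ng/mL, against 368, 381, 357, 386 and 354 CPM in unstimulated cells. Its groups were separate by a narrow gap (-0.16 ± 0.05, adjusted p = 0.0175), and the call was lost without 100 ng/mL E (adjusted p between 0.00129 and 0.0527 over 22 alternatives). The ratio of Ifih1 to Ddx58 was 0.251 to 0.352 at 100 ng/mL and 0.385 to 0.451 in unstimulated cells.

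The oligoadenylate synthetases make the short adenylates that activate RNase L, and the related Oasl proteins carry ubiquitin-like domains. Of these 5 genes 3 fell and 2 did not pass the test. Oasl2 fell furthest (chr5:114896936-114912234), with 94.5, 119, 45.3, 88.4 and 39.2 CPM at 100 ng/mL, against 214, 217, 185, 267 and 238 CPM in unstimulated cells. The groups were well apart, and 100 ng/mL libraries C and E lay far below A, B and D (-1.53 ± 0.26, adjusted p = 0.000269). Its neighbour Oasl1, which in the mouse restrains translation of Irf7, had 42.8, 46.45, 34.6, 51.8 and 29.7 CPM at 100 ng/mL, against 75.85, 68.6, 56.9, 67.8 and 69.35 CPM in unstimulated cells (-0.72 ± 0.13, adjusted p = 0.000551). The ratio of Oasl1 to Oasl2 was 0.59 ± 0.171 at 100 ng/mL and 0.305 ± 0.0364 in unstimulated cells (SD, n = 5 each), with ranges of 0.389 to 0.764 and 0.254 to 0.354 in the same order.

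Oas3 had 16.25, 21.3, 5.04, 14.8 and 5.23 CPM at 100 ng/mL, against 21.9, 23.1, 19.8, 36 and 33.1 CPM in unstimulated cells. Here too 100 ng/mL C and E were lowest, and 100 ng/mL B lay inside the unstimulated range. Its call as lower (-1.10 ± 0.39, adjusted p = 0.0322) was lost in 5 of 22 alternatives, among them without unstimulated D, unstimulated E, 100 ng/mL C or 100 ng/mL E, with adjusted p between 4.82e-05 and 0.0763. Oas2 gave 6.52 ± 3.04 CPM at 100 ng/mL and 13.2 ± 4.22 CPM in unstimulated cells (SD, n = 5 each), with no overlap but a wide spread (-1.03 ± 0.40, adjusted p = 0.0515), and it passed in 11 of 22 alternatives (adjusted p between 0.00411 and 0.117). Oas1a stood at 40.1 ± 8.46 CPM at 100 ng/mL and 48.9 ± 6.32 CPM in unstimulated cells (-0.29, adjusted p = 0.138). Its ratio to its near copy Oas1g varied by 0.924% over the 15 libraries (coefficient of variation), so their reads may be shared and the value of either is uncertain.

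The IFIT proteins bind foreign RNA ends and hold back translation. Ifit3 showed the largest fall of all 33 genes: 75.2, 79.4, 54.6, 69.8 and 39.9 CPM at 100 ng/mL, against 255, 236, 198, 325 and 218 CPM in unstimulated cells. The highest 100 ng/mL library was below 50% of the lowest unstimulated one, and the log2 fold change was -1.95 ± 0.21 (adjusted p = 4.22e-06, and between 2.81e-19 and 8.51e-05 over 22 alternatives). The ratio of Ifit3 to its copy Ifit3b stayed between 0.977 and 0.992 in every library, so reads of these genes may not have been separable and the fall belongs to the pair. Ifit1 had 108, 97.2, 116, 108 and 79.6 CPM at 100 ng/mL, against 239, 230.0, 203.5, 259.5 and 190.3 CPM in unstimulated cells, again with no overlap (-1.14 ± 0.13, adjusted p = 5.33e-06). Ifit2, next to them on chromosome 19, stood at 87.4 ± 23.1 CPM at 100 ng/mL and 132 ± 37.5 CPM in unstimulated cells (SD, n = 5 each) and did not pass (-0.60, adjusted p = 0.0862, between 0.0237 and 0.186 over 22 alternatives, 3 of which called it lower). Unstimulated library E was lowest for Ifit2, and without it Ifit2 was called. Ifit1 and Ifit3 had a ratio of 1.66 ± 0.383 at 100 ng/mL and 0.923 ± 0.0895 in unstimulated cells, with ranges of 1.22 to 2.13 and 0.798 to 1.03 in the same order.

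**Figure D2:**
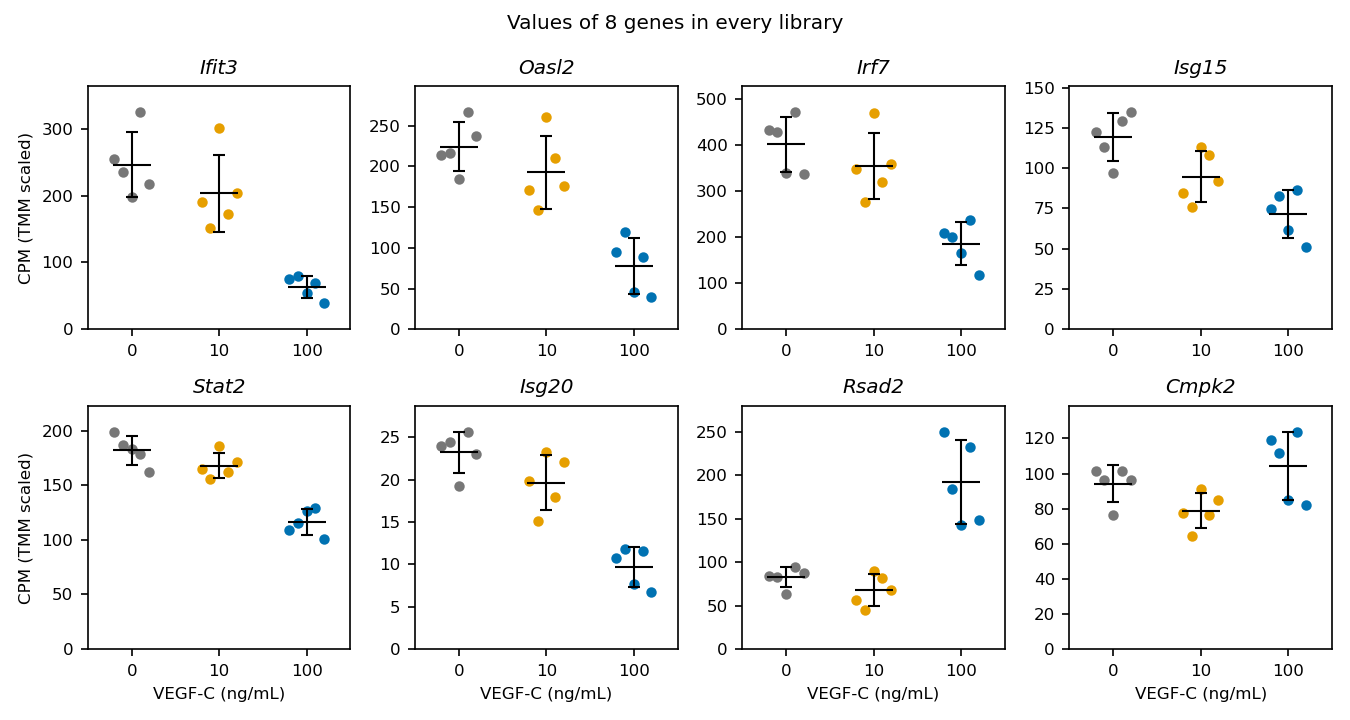
Points are the CPM of single libraries at 0, 10 and 100 ng/mL VEGF-C for 8 genes, with the mean and SD of 5 libraries as bars. Ifit3, Oasl2, Irf7, Isg15, Stat2 and Isg20 are lower at 100 ng/mL than in any unstimulated library, Rsad2 is higher, and Cmpk2 overlaps.

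The Mx genes encode dynamin-like GTPases that trap viral nucleocapsids, and most inbred laboratory mice, C57BL/6 among them, carry a defective Mx1. In the annotation Mx2 is a polymorphic pseudogene, so a working protein cannot be assumed from its transcripts either. Both were scarce and both fell. Mx2 had 19.55, 16.75, 13.85, 23.05 and 13.9 CPM at 100 ng/mL, against 23.6, 24.7, 22.3, 25.5 and 21.3 CPM in unstimulated cells, with 100 ng/mL D inside the unstimulated range (-0.43 ± 0.13, adjusted p = 0.0141). Mx1 had 3.52, 3.37, 2.85, 4.34 and 2.475 CPM at 100 ng/mL, against 5.66, 4.83, 4.525, 5.62 and 4.14 CPM in unstimulated cells, again with only library D inside (-0.59 ± 0.18, adjusted p = 0.0144).

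ISG15 is a ubiquitin-like protein that is attached to other proteins, and Herc6 is the main ligase for it in the mouse. Isg15 (chr4:156199424-156200818) had 74.8, 82.5, 61.3, 86.7 and 51 CPM at 100 ng/mL, against 122.5, 113, 96.9, 129.5 and 135 CPM in unstimulated cells. The groups did not overlap, and the log2 fold change was -0.74 ± 0.15 (adjusted p = 0.000853). Herc6 had 32.5, 34.1, 39.25, 34.7 and 31.3 CPM at 100 ng/mL, against 52.75, 61.6, 55, 58.9 and 56.5 CPM in unstimulated cells. Its libraries were tight within each group, and its log2 fold change of -0.73 ± 0.07 had an adjusted p of 1.1e-06. Of the 3 other enzymes of this pathway, the activating enzyme gene Uba7 (-0.61, adjusted p = 8.16e-06) and the conjugating enzyme gene Ube2l6 (-0.42, adjusted p = 0.0134) fell, while Trim25, a ligase also used by RIG-I, gave 0.02 (adjusted p = 0.844).

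Rsad2 alone of the 33 genes rose at 100 ng/mL against unstimulated cells. Rsad2 encodes viperin, which turns CTP into a chain-terminating nucleotide, and Cmpk2 encodes a mitochondrial nucleotide kinase. The genes are neighbours on chromosome 12, Rsad2 on the minus strand (chr12:26442746-26456452) and Cmpk2 on the plus strand (chr12:26469204-26479837), with 12751 bases between them. Rsad2 had 250.1, 185, 143, 233 and 148 CPM at 100 ng/mL, against 84.2, 83.4, 63.3, 94.1 and 88 CPM in unstimulated cells. Every 100 ng/mL library exceeded every unstimulated one, a 2.32-fold rise (1.22 ± 0.20, adjusted p = 0.000164), which passed in all 22 alternatives with log2 fold changes of 1.08 to 1.31. Cmpk2 had 119, 112, 85.2, 124 and 82.1 CPM at 100 ng/mL, against 101.5, 96.3, 76.3, 101.3 and 96.1 CPM in unstimulated cells. Its groups overlapped and it did not pass (0.15, adjusted p = 0.384). The ratio of Cmpk2 to Rsad2 was 0.475 to 0.604 at 100 ng/mL and 1.08 to 1.21 in unstimulated cells, with no library of either group in the range of the other. Isg20, an exonuclease of single-stranded RNA, went the other way, with 10.8, 11.75, 7.69, 11.6 and 6.685 CPM at 100 ng/mL, against 23.9, 24.4, 19.3, 25.6 and 23 CPM in unstimulated cells (-1.26 ± 0.16, adjusted p = 1.57e-05).

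The promoters were read for the letters of the ISRE, to set the genes that fell beside Rsad2 and Cmpk2. RefSeq windows of GRCm38.p6, from 250 bases before to 50 after the start, were matched by symbol for 24 of the 33 genes. The ISRE core was searched as GAAANNGAAA on both strands with overlaps allowed. It occurred in 12 of the 24, against 3.8% of the 10870 tested genes with a window and 3.44% of all 32851 promoter windows. These 12 were Bst2, Ddx58, Ifih1, Ifit1, Ifit3, Isg15, Oas1a, Oas3, Rsad2, Socs1, Stat2 and Trim21. The 170 bases before the start are printed below, 5′ to 3′ on the strand of the gene, for the 2 IFIT genes that fell, for Isg15, and for the pair that did not fall. Capitals mark matches to the core, which reads TTTC on both sides where it lies on the opposite strand.
Ifit3 (plus strand, chr19:34583359-34583528): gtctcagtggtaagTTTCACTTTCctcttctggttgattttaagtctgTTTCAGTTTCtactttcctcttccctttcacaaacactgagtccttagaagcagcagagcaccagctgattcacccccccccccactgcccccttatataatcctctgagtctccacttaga
Ifit1 (plus strand, chr19:34640719-34640888): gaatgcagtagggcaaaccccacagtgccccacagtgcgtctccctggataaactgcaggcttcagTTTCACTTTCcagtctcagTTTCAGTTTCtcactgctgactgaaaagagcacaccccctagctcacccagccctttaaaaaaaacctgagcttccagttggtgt
Isg15 (minus strand, chr4:156200819-156200988): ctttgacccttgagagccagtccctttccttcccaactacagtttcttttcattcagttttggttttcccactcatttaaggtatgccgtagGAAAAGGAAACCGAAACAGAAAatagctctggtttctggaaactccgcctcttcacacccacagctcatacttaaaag
Rsad2 (minus strand, chr12:26456453-26456622): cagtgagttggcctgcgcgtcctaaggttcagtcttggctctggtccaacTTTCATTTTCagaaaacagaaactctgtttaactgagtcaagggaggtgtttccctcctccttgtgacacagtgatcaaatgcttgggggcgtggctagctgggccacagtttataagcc
Cmpk2 (plus strand, chr12:26469045-26469214): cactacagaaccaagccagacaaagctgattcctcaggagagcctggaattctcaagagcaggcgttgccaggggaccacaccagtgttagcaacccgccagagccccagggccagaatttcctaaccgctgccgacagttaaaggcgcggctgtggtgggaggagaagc
Ifit3 held matches beginning 156 and 122 bases before its start, Ifit1 at 104 and 85 bases, and Isg15 a run of 3 overlapping matches from 78 bases. Rsad2 held 1 match at 120 bases, and the Cmpk2 window held none. Of the 12 genes with a match 10 fell and 1 rose at 100 ng/mL (median log2 fold change -0.654), and of the 12 without a match 9 fell and none rose (median -0.659). The gamma-activated site (GAS), bound by STAT dimers, was searched as TTCNNNGAA, which is its own reverse complement. It occurred in 6 of the 24 (Bst2, Ifi35, Ifit2, Irf1, Isg20 and Oas1a), against 8.43% of the same tested genes and 8.3% of all windows. A match is a run of letters and not a measured binding site. A gene without a match may still have an ISRE with other letters or outside the window.

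Among the membrane and trafficking genes 2 of 3 fell. Bst2 encodes tetherin, which anchors budding virions to the cell surface. It had 636, 649, 483, 663 and 490.1 CPM at 100 ng/mL, against 854, 959.7, 798.5, 1106 and 903 CPM in unstimulated cells, with no overlap (-0.66 ± 0.12, adjusted p = 0.000444). Rtp4, a receptor-transporting protein with antiviral activity, had 102.5, 96.3, 99.3, 101.5 and 81.3 CPM at 100 ng/mL, against 139, 152, 138.5, 167 and 133 CPM in unstimulated cells (-0.60 ± 0.09, adjusted p = 5.58e-05). Its 100 ng/mL libraries were all below the unstimulated ones, though in the annotation it overlaps Masp1. Ifi27 did not pass, at 43.8 ± 7.58 CPM at 100 ng/mL and 39 ± 5.51 CPM in unstimulated cells (SD, n = 5 each, 0.17, adjusted p = 0.318). Its relatives Ifi27l2a and Ifi27l2b fell, at -1.59 (adjusted p = 0.000235) and -2.76 (adjusted p = 2.34e-07). The ratio of Ifi27 to Ifi27l2a was 0.646 to 1.66 at 100 ng/mL and 0.183 to 0.527 in unstimulated cells.

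All 3 PARP and ubiquitin ligase genes fell. Parp14, an ADP-ribosyltransferase, had 269, 219.5, 253, 270.5 and 219 CPM at 100 ng/mL, against 398, 439, 416, 419 and 290.0 CPM in unstimulated cells, where library E was low but still above every 100 ng/mL library (-0.67 ± 0.12, adjusted p = 0.000429). Parp9, which works with the ubiquitin ligase Dtx3l and overlaps its gene, had 124, 120.0, 144, 129 and 111 CPM at 100 ng/mL, against 183, 171, 169.6, 187 and 163 CPM in unstimulated cells (-0.48 ± 0.07, adjusted p = 7.3e-05). Trim21, an intracellular antibody receptor and ubiquitin ligase, had 20, 17.9, 20.2, 21.7 and 17.35 CPM at 100 ng/mL, against 28.65, 28.5, 25.5, 32.5 and 27.1 CPM in unstimulated cells (-0.55 ± 0.08, adjusted p = 9.33e-05). None of these 3 genes had overlapping groups.

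Of the other 3 genes Ifi44 and Ifi35 fell. Ifi44, a cytoplasmic interferon-induced protein, had 368.5, 358, 424.5, 382 and 303 CPM at 100 ng/mL, against 481, 565, 485, 576 and 427 CPM in unstimulated cells, where library E nearly met 100 ng/mL library C (-0.46 ± 0.11, adjusted p = 0.00302). Ifi35 had 59.7, 63.6, 51.5, 69.7 and 49.35 CPM at 100 ng/mL, against 85, 77.8, 68.4, 82.7 and 75.7 CPM in unstimulated cells, with 100 ng/mL D inside the unstimulated range (-0.41 ± 0.09, adjusted p = 0.00163). Xaf1, which encodes a protein that binds the apoptosis inhibitor XIAP, did not pass (-0.27, adjusted p = 0.0576). It stood at 60 ± 7.47 CPM at 100 ng/mL and 72.5 ± 6.54 CPM in unstimulated cells (SD, n = 5 each). It passed in 9 of 22 alternatives, with adjusted p between 0.0174 and 0.145.

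The 33 genes tended to share high and low libraries within a group. In the 100 ng/mL group library E was lowest for 26 genes, with a median log2 ratio to the unstimulated mean of -0.844, and library D was highest for 16, at -0.444. Libraries A, B and C lay between, at -0.505, -0.524 and -0.619. In the 10 ng/mL group library C was highest for 26 genes, at 0.0982, and library B lowest for 25, at -0.422, while A, D and E were at -0.142, -0.154 and -0.109. The unstimulated libraries A to E were at 0.0484, 0.0417, -0.145, 0.183 and -0.0607, with library D highest for 18 genes. Thus 10 ng/mL library B reached close to 100 ng/mL library D, while 10 ng/mL library C lay within the unstimulated libraries. Over all genes, 10 ng/mL B deviated from its group mean most like unstimulated C (correlation 0.655), the lowest unstimulated library here. Likewise 10 ng/mL C deviated most like unstimulated D (0.675), the highest. Whether this spread reflects the dose or a level shared between libraries was not tested. The 100 ng/mL library B, which lay apart over all genes, was in the middle of its group for these 33.

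The 10 ng/mL dose asks whether a lower concentration moved the same genes. None of the 33 was called by edgeR (0 of 33), as no gene was among all 17650 tested (0%), where the smallest adjusted p was 0.97. None was called by the DESeq2 Wald test, by limma-voom or in the edgeR fit with surrogate variables either, and these p-values do not show that the 2 groups were alike. At an unadjusted edgeR p under 0.05, 844 of all genes passed. Of the 33 genes 4 did, all lower: Oasl1 (-0.34), Mx2 (-0.30), Usp18 (-0.27) and Isg15 (-0.33 on the log2 scale), and the smallest of these p-values in the edgeR fit, before adjustment, was 0.0238. Over all genes 1.66% were lower at that level. Isg15, for example, had 84.4, 76.1, 113, 108 and 92 CPM at 10 ng/mL, against 122.5, 113, 96.9, 129.5 and 135 CPM in unstimulated cells. The groups overlapped for all 33, where 0.436% of all genes tested were separate and lower. Over all genes, each 10 ng/mL library deviated from its group mean most like an unstimulated library of another letter (correlations of 0.487 to 0.786). Neither the overlap nor the main edgeR fit takes account of such matches, which the labels do not give. Of the 33 fold changes 30 were below 0, with a median of -0.157 on the log2 scale, against 50.9% below 0 and a median of -0.00267 over all genes. Leukocyte markers summed to 39.18 to 116.5 CPM and fibroblastic and mural markers to 2629 to 4309 CPM at 10 ng/mL, and none of either list was called at that dose against unstimulated cells.

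**Figure D3:**
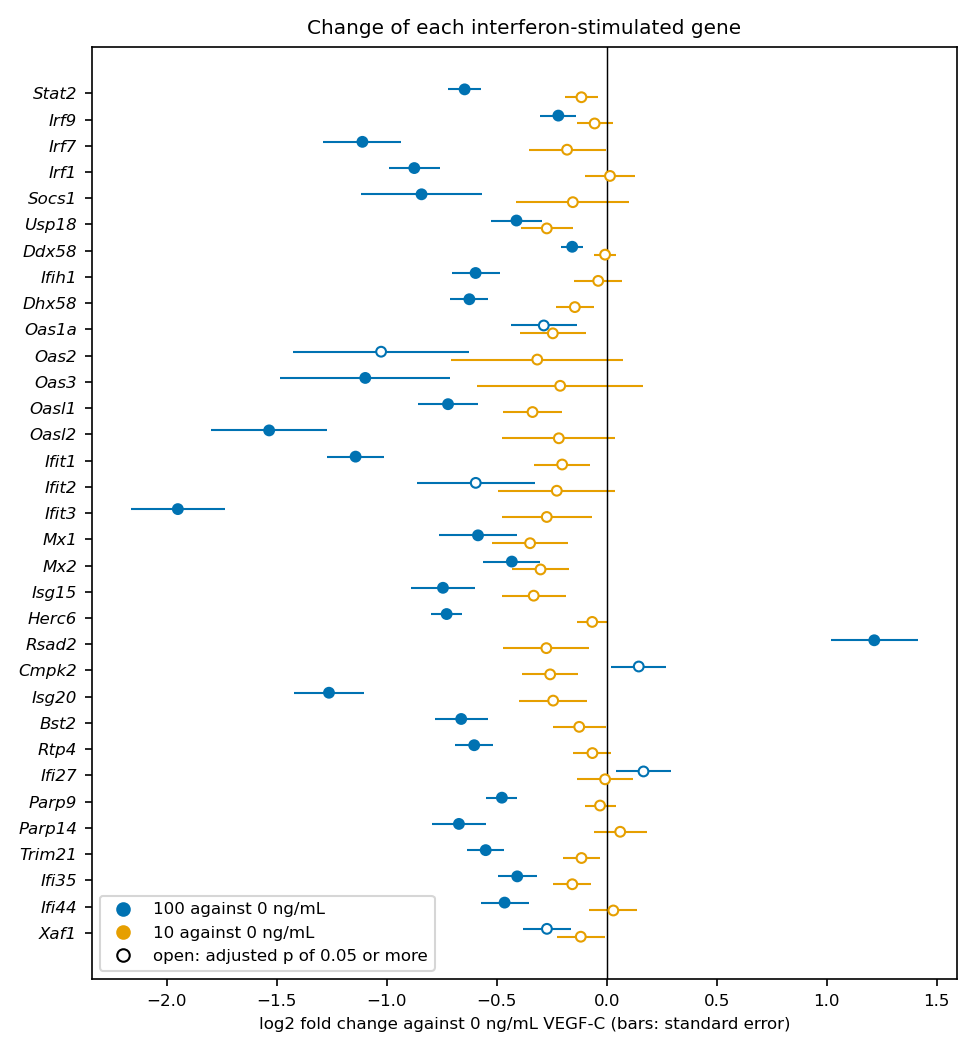
Points are log2 fold changes against unstimulated cells, with standard errors, for 33 genes at 100 ng/mL (blue) and 10 ng/mL (orange), filled where the adjusted p is under 0.05. At 100 ng/mL 26 filled points lie left of 0 and Rsad2 right of it, and no 10 ng/mL point is filled.

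Some genes stood part of the way down at 10 ng/mL and others did not, although none of the 10 ng/mL differences passed. Ifit3 averaged 246 ± 48.85 CPM in unstimulated cells, 204 ± 57.7 CPM at 10 ng/mL and 63.8 ± 16.3 CPM at 100 ng/mL (SD, n = 5 each). Isg15 averaged 119 ± 15, 94.8 ± 15.6 and 71.2 ± 14.9 CPM in the same order. Irf1, in contrast, averaged 63.8 ± 8.48, 64.5 ± 10.17 and 34.8 ± 2.85 CPM, and Parp14 392 ± 59, 409 ± 60.5 and 246 ± 25.45 CPM. For these last genes the 10 ng/mL mean was no lower than the unstimulated one. Rsad2 averaged 82.6 ± 11.6 CPM in unstimulated cells, 68.3 ± 18.5 CPM at 10 ng/mL and 192 ± 48.4 CPM at 100 ng/mL, so its lowest mean was at the middle dose. The comparisons of both doses share the unstimulated libraries.

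Set against 10 ng/mL, the 100 ng/mL cells had 20 of the 33 genes lower, 2 higher (Rsad2 and Cmpk2) and 11 not called, where 20.6% of all genes tested were lower and 19.9% higher. The median log2 fold change was -0.479, and 16 of the 33 were separate and lower, against 12.9% of all genes tested. Ifit3 gave -1.68 ± 0.21 (adjusted p = 1.85e-05), Oasl2 -1.32 ± 0.26 (adjusted p = 0.00101) and Isg20 -1.02 ± 0.16 (adjusted p = 0.000125), the 3 that fell at least 2-fold. The share of all genes that fell at least 2-fold was not counted here either. In this comparison too, 7 leukocyte and 9 fibroblastic and mural markers were lower and none higher. Rsad2 had 250.1, 185, 143, 233 and 148 CPM at 100 ng/mL, against 56.9, 44.5, 90.3, 82.1 and 67.5 CPM at 10 ng/mL (1.49 ± 0.20, adjusted p = 3.16e-05). Cmpk2 had 119, 112, 85.2, 124 and 82.1 CPM at 100 ng/mL, against 77.8, 64.3, 90.95, 76.4 and 85 CPM at 10 ng/mL, and its rise (0.40 ± 0.13, adjusted p = 0.0191) was lost in 4 of 22 alternatives, among them without 10 ng/mL B, 100 ng/mL A or 100 ng/mL D (adjusted p between 0.00605 and 0.0689). Genes near the threshold here were Isg15 (-0.41, adjusted p = 0.0356, lost in 9 of 22 alternatives), Ifi35 (-0.25, 0.0329, lost in 8), Oasl1 (-0.38, 0.0333, lost in 7) and Ddx58 (-0.15, 0.0242, lost in 3). Each of the 4 was lost without 10 ng/mL C and without 100 ng/mL E. Isg15, Ifi35 and Oasl1 were also lost without 10 ng/mL D, 10 ng/mL E or 100 ng/mL C, Isg15 and Ifi35 without 100 ng/mL A, and Ifi35 without 10 ng/mL A. Their highest adjusted p values were 0.093, 0.0865, 0.0867 and 0.0715 for Isg15, Ifi35, Oasl1 and Ddx58.

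The rest of the interferon pathway was read from lists of 71 further genes chosen for their role. Of 59 that could be tested, 35 fell and 4 rose at 100 ng/mL against unstimulated cells (median log2 fold change -0.315), where 21.5% of all genes tested fell and 21.4% rose. Without 100 ng/mL library B 7 of them rose, with Ifnar1, Jak1 and Tyk2 added, and 3 did in the 12 alternatives that lost Ptpn1. Of the same 59, none passed at 10 ng/mL, where 0% of all genes tested did. At 100 against 10 ng/mL 32 fell and 4 rose, where 20.6% of all genes tested were lower and 19.9% higher. The interferon ligands were too rare to be tested in any group. Ifnb1 had at most 4.988 estimated counts in any 100 ng/mL library, 6.171 in any 10 ng/mL library and 5.988 in any unstimulated library. Ifna1, Ifna2, Ifna4, Ifna5, Ifne, Ifnk, Ifnl2 and Ifnl3 had under 3 counts in every library, and Ifng was at 0 in all 15. A difference in ligand transcripts was not detectable at this depth.

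Of the 6 receptor genes 3 fell and 1 rose. For this and each list below, 21.5% of all genes tested fell and 21.4% rose in the same comparison. For the type I receptor, Ifnar2 fell to 81.2 ± 12.5 CPM at 100 ng/mL, against 109.5 ± 12 CPM in unstimulated cells (-0.43 ± 0.11, adjusted p = 0.00551), and Ifnar1 did not pass, at 224 ± 23.35 and 189.6 ± 24.5 CPM (0.24, adjusted p = 0.0615). For the type II receptor, Ifngr1 fell (-0.46 ± 0.09, adjusted p = 0.000552) and Ifngr2 did not pass (-0.10, adjusted p = 0.359). Il10rb, shared by the type III and interleukin-10 family receptors, rose to 57.2 ± 4.465 CPM at 100 ng/mL, against 37.4 ± 3.37 CPM in unstimulated cells (0.61 ± 0.07, adjusted p = 8.97e-06). Its partner for type III interferon, Ifnlr1, was barely present, at 0.132 ± 0.0963 CPM at 100 ng/mL and 0.461 ± 0.155 CPM in unstimulated cells, and fell (-1.81 ± 0.41, adjusted p = 0.00261).

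Among the kinases and STATs of the receptors, Stat3 (-0.49, adjusted p = 0.000155) and Jak2 (-0.37, adjusted p = 0.00117) fell, and Jak1 (0.28, adjusted p = 0.0672) and Tyk2 (0.20, adjusted p = 0.165) did not pass. Jak2, a kinase of the type II interferon receptor, fell to 53.8 ± 6.92 CPM at 100 ng/mL, against 69.7 ± 4.31 CPM in unstimulated cells (SD, n = 5 each). Of 12 sensing and induction genes 7 fell and 1 rose. Zbp1, a sensor of left-handed nucleic acid, fell to 32.6 ± 9.64 CPM at 100 ng/mL, against 117.5 ± 13 CPM in unstimulated cells (-1.85 ± 0.18, adjusted p = 1.56e-06). Traf3, an adaptor, and Ikbke, a kinase of the interferon regulatory factors, fell less (-0.72, adjusted p = 2.06e-06, and -0.71, adjusted p = 4.55e-06). The gene that rose was Irf8, a factor best known in myeloid cells, named after its value was seen (0.94 ± 0.16, adjusted p = 0.000244).

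Of 6 negative regulators 3 fell and 1 rose. The phosphatase genes Ptpn11 (-0.22, adjusted p = 0.00417), Ptpn2 (-0.22, adjusted p = 0.0052) and Ptpn6 (-1.27, adjusted p = 0.0069) were the 3 that fell. Ptpn6, which is best known in leukocytes, was at 0.987 ± 0.253 CPM at 100 ng/mL and 2.41 ± 1.01 CPM in unstimulated cells. Ptpn1 was the rise (0.21, adjusted p = 0.0253) and was named for that after its value was seen. That call was lost in 12 of 22 alternatives, where its adjusted p reached 0.0803: it failed without unstimulated library B or D and without 100 ng/mL library A, D or E. Of 8 tested relatives of the 33 genes 4 fell and none rose, led by Ifi27l2b, Ifit3b (-1.94, adjusted p = 4.2e-06) and Ifi27l2a. Reads of Ifit3b and Ifit3 may not have been separable. The Ifit3b call, also among the 35 pathway genes that fell, may thus repeat that of Ifit3.

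Of 19 further interferon-stimulated genes 13 fell and 1 rose, with a median log2 fold change of -0.51. The smallest p-values belonged to Slfn2, a growth regulator of the Schlafen family (98.2 ± 23.5 CPM at 100 ng/mL and 278 ± 18.1 CPM in unstimulated cells, -1.50 ± 0.12, adjusted p = 2.97e-07), Psmb9, an immunoproteasome subunit (11 ± 2.27 and 24.4 ± 2.62 CPM in the same order, -1.15 ± 0.12, adjusted p = 2.73e-06), and Tor3a, a torsin family member (97.8 ± 7.9 and 161 ± 16.35 CPM, -0.72 ± 0.08, adjusted p = 3.53e-06). Samd9l, an antiviral translation inhibitor, was the only rise (0.30 ± 0.07, adjusted p = 0.00427), named after its value was seen.

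**Figure D4:**
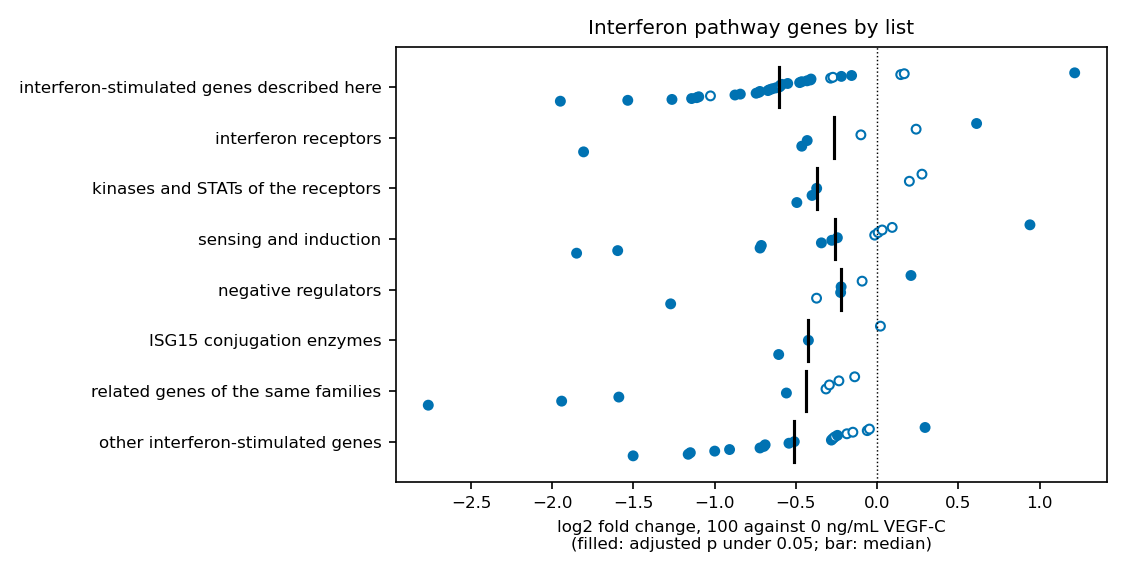
Points are log2 fold changes of single genes at 100 ng/mL against unstimulated cells, by list, filled where the adjusted p is under 0.05, with the median of each list as a bar. Most filled points lie left of 0, and the medians run from -0.603 for the 33 genes to -0.223 for the negative regulators.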

How the data were processed

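Per the labels' protocols, 15 poly-A selected libraries were made with a stranded Illumina TruSeq kit and sequenced. The authors deposited an estimated count and an RPKM value per gene and library, with a gene length, per the file headers. The submitters' processing notes name FastQC, Bowtie2, limma, GRCm38 and mm10. Which program counted reads, whether it used strand and what it did with reads of more than 1 gene is not given in sources used here, so near copies and overlapping genes are uncertain. In GENCODE M21 (GRCm38), from which coordinates come, Irf1, Usp18, Dhx58, Oas2, Oasl1, Herc6, Parp14 and Ifi35 also overlap another gene model, in addition to the overlaps named with the genes.

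Estimated counts were rounded, genes were filtered with filterByExpr (17650 remained), and all 15 libraries were fitted together in edgeR 4.0.16 (R 4.3.3) with TMM scaling and group as the term. The quasi-likelihood test was Benjamini-Hochberg adjusted over all genes tested, at 0.05. The procedure was also run on simulated counts drawn independently for each library. That run cannot show how the test fares with deviations shared between libraries. CPM values are TMM scaled. Depth was 27784906 to 38590841 counts per library, and precision rests on 5 libraries per group. Libraries within a group differed by more than counting noise in every pair (chi-square per degree of freedom of at least 7.95). A second deposited table, with the same values for 6718 of its 6719 genes found in the first, was not used.

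The 33 genes, the pathway and marker lists and the comparisons were chosen with earlier results of these data known. All 33 genes were named, with library values for those called at 100 ng/mL against unstimulated cells at a mean log2 CPM of at least 1. From each pathway list the 3 smallest p-values and all ligands and receptors were named. Marker lists were given as counts and sums, with Thy1 named after its value was seen. A gene that this rule would name is not reported here.

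Alternatives in normalization and filtering were scaling by library size alone, by DESeq2 1.42.0 size factors, no filter on low counts, and a minimum of 10 CPM in 5 libraries. Alternatives in the test were limma-voom (limma 3.58.1), DESeq2's Wald test, limma on log2(RPKM + 1) or log2(RPKM + 0.1), fits to only the 10 libraries compared, the replicate letter as a term, an adjusted p under 0.01, and each library left out in turn. After seeing the data, 2 more were added: a fit with 3 surrogate variables (sva 3.50.0), and a fit without the library lowest on the second principal component in each group (E of the unstimulated cells, D at 10 ng/mL and B at 100 ng/mL).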

Additional observations from a re-analysis of the deposited data

Results flagged for a closer look

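In 6 of 99 groups of 5 libraries (33 genes in 3 groups) the highest or lowest library stood far from the other 4, with a gap to the nearest of more than 0.71 of the whole range. Chance flags about 1 in 20 groups. Irf1 had 49.1 CPM in unstimulated library E, against 64.4 to 69.6 CPM in the other 4 unstimulated libraries. Parp14 was also low in that library, at 290.0 CPM, against 398.0 to 439.0 CPM in the other 4. Oas1a had 38.0 CPM in unstimulated library C, against 50.1 to 54.3 CPM in the others, and Cmpk2 had 76.3 CPM in the same library, against 96.1 to 102.0 CPM. At 10 ng/mL, Rtp4 had 167.0 CPM in library C, against 128.0 to 135.0 CPM in the others, and Ifi35 had 63.9 CPM in library B, against 70.5 to 72.1 CPM.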

How the results depend on the processing

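The 33 genes had 19 to 29 called lower and 1 called higher (Rsad2) at 100 ng/mL against unstimulated cells over the alternatives that left out no single library, and 22 to 27 called lower when each library was left out in turn. With an adjusted p under 0.01, 1 gene was called higher at 100 against 10 ng/mL, as in the fit without the 3 libraries lowest on the second principal component (1), and 1 to 2 when each library was left out. Among the pathway genes, 7 were called higher at 100 ng/mL against unstimulated cells with surrogate variables and 7 without those 3 libraries, and 3 to 7 when each library was left out, with 7 without 100 ng/mL B. That count was 3 with library size alone, no or a stricter filter on low counts, only the 10 libraries compared, the replicate block, both RPKM fits and an adjusted p under 0.01, and it lost Ptpn1 each time. Surrogate variables gave 1 pathway gene higher at 10 ng/mL against unstimulated cells, and an adjusted p under 0.01 gave 2 higher at 100 against 10 ng/mL. The causes were not tested. No called gene of the 33 changed direction under any alternative.

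With a replicate block on the letters, 26 of the 33 genes fell and 1 rose at 100 ng/mL against unstimulated cells, 0 passed at 10 ng/mL, and 20 fell and 2 rose at 100 against 10 ng/mL. By the labels the libraries share only a letter, and same-letter correlations of deviations ran from -0.342 to 0.132 (100 ng/mL and unstimulated), -0.314 to 0.0567 (10 ng/mL and unstimulated) and -0.0256 to 0.132 (100 and 10 ng/mL). Each 10 ng/mL library correlated best with the unstimulated library of the next letter, E with A (0.487 to 0.786). Each 100 ng/mL library correlated best with a different 10 ng/mL library of another letter (0.21 to 0.428), and with an unstimulated library of another letter (0.236 to 0.559). Of the 3 libraries lowest on the second principal component, 100 ng/mL B correlated best with 10 ng/mL D and with unstimulated E, and 10 ng/mL D with unstimulated E. These matches are a hint from the data, not the design, and no fit used them. Depth limits what can be said of the interferon ligands and Socs1.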
